A study of Mus musculus with 24 samples.

Results

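The 37 genes of the mouse mitochondrial genome were followed in E0771 and MC38 tumour cells after 3 h with TNF, the BET bromodomain inhibitor RG6146, or both. They were taken from the count table as every row whose gene symbol starts with mt-, which gave 37 of 43629 genes: 13 that encode protein, 2 that encode ribosomal RNA (rRNA) and 22 that encode transfer RNA (tRNA). E0771 is a mouse breast adenocarcinoma line and MC38 a mouse colon adenocarcinoma line, both grown in culture. Each line was given DMSO (the solvent control), RG6146 at 2.5 µM, recombinant murine TNF at 10 ng/mL, or TNF at 10 ng/mL with RG6146 at 2.5 µM (the combination), with 3 libraries in each of the 8 groups and no other agent named. The growth protocol attached to all samples names MC38-Ova, and the line names used here are those of the sample labels.

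The mitochondrial genome is a small circle transcribed from both of its strands into long precursors, which are cut at the tRNAs that punctuate them into separate rRNAs, mRNAs and tRNAs. Its mRNAs encode core subunits of respiratory complexes I, III and IV and of the ATP synthase, and its 2 rRNAs build the mitochondrial ribosome, while every protein that transcribes, processes or translates this RNA is encoded in the nucleus. In the annotation 28 members lie on the plus strand, and mt-Nd6 and 8 tRNAs lie on the minus strand. These genes are written here as transcribed from the heavy and the light strand promoters, respectively. BET proteins read acetylated histones on nuclear chromatin, and TNF is a cytokine that signals through NF-kB.

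The libraries were made with a 3′ kit that starts cDNA synthesis from oligo-dT, so a read marks a stretch of A, either the tail of a transcript or an A-rich stretch inside it. Most mitochondrial mRNAs carry short tails, and several of these genes also hold A-rich stretches. Whether the reads of mt-Nd6 started at a tail was not tested. The most A-rich 20 bases of 6 members are shown in capitals within 60 bases of each transcript, because priming can start there. They are the 5 that were low in both libraries that stood apart, and mt-Nd6. The sequences are those of the GENCODE vM21 transcripts on GRCm38 (mm10).
mt-Rnr2, 16S rRNA, chrM:1468-1527, plus strand: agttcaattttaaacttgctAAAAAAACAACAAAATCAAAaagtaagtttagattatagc
mt-Rnr1, 12S rRNA, chrM:705-764, plus strand: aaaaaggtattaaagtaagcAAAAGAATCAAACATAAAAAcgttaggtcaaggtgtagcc
mt-Nd2, complex I mRNA, chrM:4020-4079, plus strand: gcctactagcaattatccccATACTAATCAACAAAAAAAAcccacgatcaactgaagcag
mt-Atp8, ATP synthase mRNA, chrM:7871-7930, plus strand: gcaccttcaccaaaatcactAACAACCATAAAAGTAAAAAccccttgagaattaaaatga
mt-Nd5, complex I mRNA, chrM:12603-12662, plus strand: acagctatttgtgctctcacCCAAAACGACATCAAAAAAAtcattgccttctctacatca
mt-Nd6, complex I mRNA, chrM:13810-13869, minus strand: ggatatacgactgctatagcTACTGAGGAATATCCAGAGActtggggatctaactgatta
The capital window holds 16 A in mt-Rnr2, 15 in mt-Rnr1, 14 in mt-Nd2 and in mt-Atp8, 13 in mt-Nd5 and 8 in mt-Nd6, the lowest of the 15 rRNA and protein-coding members.

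Total counts ran from 5392406 to 9132814 in E0771 and from 5392808 to 9673118 in MC38. E0771 TNF replicate 2 and MC38 DMSO replicate 2 stood apart, and were also the deepest library of their line. Their mitochondrial rRNA was 0.376% and 0.609% of all counts, against 1.69% to 3.23% in the other 22 libraries. Levels are given as CPM, counts scaled to a common library total with the TMM method over the 24 libraries. Most markers of epithelium, mammary gland and colon were low or had no count in both lines. In E0771 the epithelial gene Krt8 was read, at a median of 88.9 CPM. Epcam and Krt18 had medians of 0 CPM there, and Krt19, Cldn7, Elf5 and Pgr had no count in any library. In MC38 the epithelial markers summed to a median of 0.53 CPM and the colon markers to 0.38 CPM. The intestinal genes Cdx2 and Krt20 had no count in MC38. Fibroblast markers summed to 74.0 to 133 CPM in E0771 and to 311 to 697 CPM in MC38. The sum over 12 markers of leukocytes was 105.5 CPM in MC38 combination replicate 2. It lay between 2.94 and 5.83 CPM in the remaining 11 libraries of MC38, and between 10.9 and 22.7 CPM in E0771. MC38 combination replicate 2 also had the highest MC38 sums for epithelial, erythroid and endothelial markers. These were 8.10, 14.9 and 4.91 CPM, against at most 0.77, 3.06 and 2.66 CPM in the remaining MC38 libraries. Its sums for fibroblast, mammary and colon markers were not the highest of MC38. The part of other cells in the results was not tested.

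Nuclear copies of the mitochondrial genes also held counts. Whether these counts came from mitochondrial RNA was not tested. A search of the annotated transcripts found 15 nuclear pseudogenes that match a mitochondrial protein-coding gene at 90% identity or more over at least 200 bases, and all 15 had rows in the count table. On chromosome 1 a run of such copies is identical, or nearly so, to the mitochondrial genes. The cytochrome c oxidase gene mt-Co3 and its copy Gm28437 illustrate this with their last 60 shared bases, which have 0 differences.
mt-Co3, chrM:9330-9389, plus strand: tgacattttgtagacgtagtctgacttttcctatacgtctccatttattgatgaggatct
Gm28437, chromosome 1, minus strand, same positions of the transcript: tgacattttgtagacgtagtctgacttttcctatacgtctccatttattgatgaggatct
Of the counts given to mt-Co3 or Gm28437, mt-Co3 held 48.4% to 50.9% across the 24 libraries, with a median of 49.8%. The 95% exact binomial interval of this share contained an even split in 21 of 24 libraries.

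The same near-even split was seen for 4 further members. The share kept by the mitochondrial gene was 49.3% to 50.5% for mt-Atp6 beside Gm10925, 48.6% to 51.4% for mt-Co2 beside Gm28661, 47.2% to 51.7% for mt-Nd3 beside Gm28438, and 44.7% to 54.1% for mt-Nd4l beside Gm10222. For these members the row of the copy thus held about as many counts as the row of the gene. Copies that match only part of a gene held less. The copy Gm29216 matches the last 483 bases of mt-Co1, and mt-Co1 kept 60.7% to 69.4%. The copy Gm28439 matches the first 876 bases of mt-Nd4, and mt-Nd4 kept 86.8% to 95.8%.

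Some copies that differ over their length also held counts. Beside Gm13341 alone, which is 95.9% identical, mt-Co2 kept 79.9% to 82.9%. Beside Gm13340 alone, which is 97.6% identical, mt-Co1 kept 80.9% to 84.7%. Over the 24 libraries mt-Co2 had 173836 counts, Gm28661 173777 and Gm13341 40200. In the same libraries mt-Co1 had 101765 counts, Gm29216 52140 and Gm13340 20606. The copies of mt-Nd6 and mt-Cytb, at 93.6% and 92.9% identity, held few. mt-Nd6 differs from its chromosome 4 copy Gm11408 at 33 of 519 bases, including the 3 set in capitals among their last 60.
mt-Nd6, chrM:13552-13611, minus strand: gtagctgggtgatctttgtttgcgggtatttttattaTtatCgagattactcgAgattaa
Gm11408, chromosome 4, minus strand, same positions of the transcript: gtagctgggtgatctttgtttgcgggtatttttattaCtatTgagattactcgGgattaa
Over the 24 libraries mt-Nd6 had 16483 counts and Gm11408 had 22. mt-Cytb had 477090 counts and its 92.9% identical copy Gm11410 had 186. The share of counts that a member held beside a copy thus differed between pairs, which bears on any ranking of members by level.

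**Figure D1:**
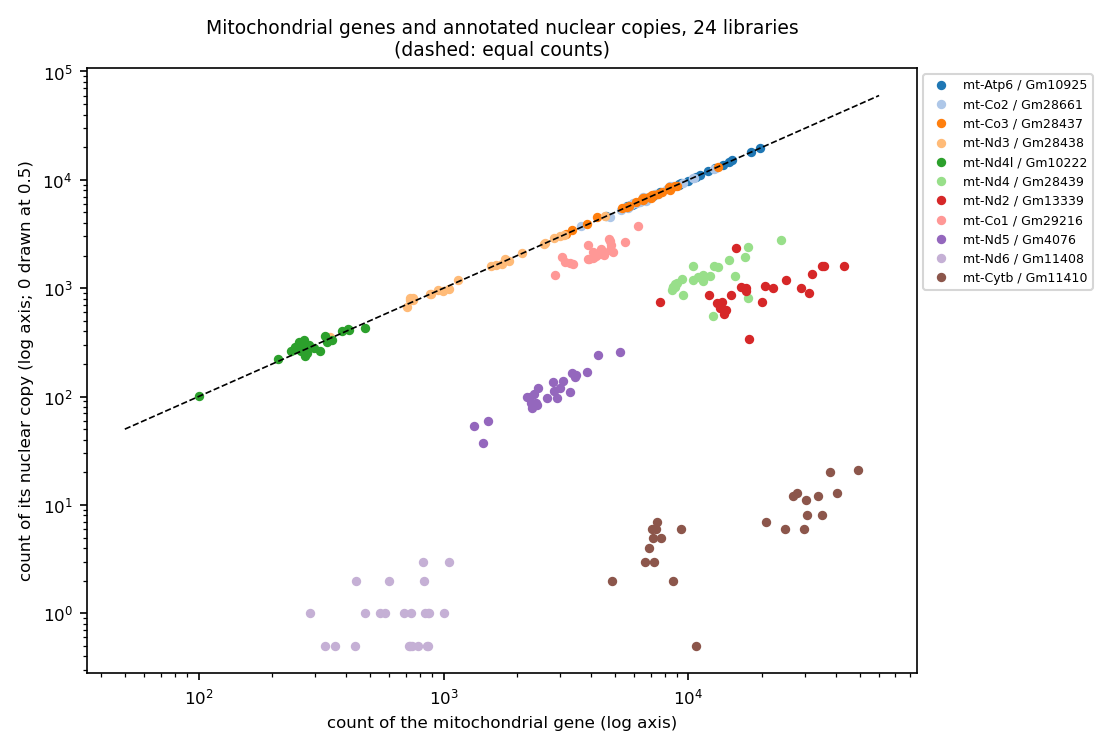
Counts of each mitochondrial gene (horizontal, log axis) against counts of its nuclear copy (vertical, log axis), 1 point for each of the 24 libraries and 1 colour for each pair. Points of mt-Atp6, mt-Co2, mt-Co3, mt-Nd3 and mt-Nd4l lie on or near the dashed line of equal counts, and those of mt-Nd6 and mt-Cytb lie far below it.

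The class totals were compared first. Protein-coding members took 0.899% to 1.23% of all counts in E0771 and 1.47% to 2.11% in MC38, and the ranges of the lines did not overlap. The rRNAs had medians of 2.59% in E0771 and 2.57% in MC38, and their ranges overlapped. The 22 tRNAs together took 0.00777% to 0.0146% in E0771 and 0.0189% to 0.0288% in MC38. Since oligo-dT priming needs a run of A, these shares describe what the kit recovered and not the abundance of rRNA or tRNA in the cell.

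No treatment effect on the rRNA or the protein-coding total passed its test, and the tRNA total was not tested. The protein-coding share in E0771 was 1.16% ± 0.057 (SD, n = 3) with DMSO, 1.15% ± 0.0060 with RG6146, 1.03% ± 0.113 with TNF and 1.16% ± 0.019 with the combination. All 3 TNF libraries (1.07%, 0.899% and 1.11%) lay below those of the DMSO, RG6146 and combination groups. In MC38 it was 1.69% ± 0.067 with DMSO, 1.92% ± 0.187 with RG6146, 1.78% ± 0.108 with TNF and 1.63% ± 0.135 with the combination. The MC38 RG6146 libraries lay above the combination libraries. The effects of TNF and of RG6146 on the rRNA share, on the protein-coding share and on the log2 ratio of protein-coding to rRNA counts were tested in each line with exact two-sided permutation tests, which permuted the treatment within the levels of the other agent. None of these 12 tests passed, with Benjamini-Hochberg adjusted p from 0.864 to 0.895. The smallest raw permutation p was 0.155, for TNF on the protein-coding share in E0771. The smallest raw p the design allows is 0.005, and 1 effect alone at that p would not pass after adjustment over 12 tests. A lack of calls here therefore does not show that effects were absent. Without the low libraries the effects on the rRNA share turned direction in both lines, for TNF from -0.367 to 0.0563 percentage points in E0771 and from 0.178 to -0.178 in MC38.

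**Figure D2:**
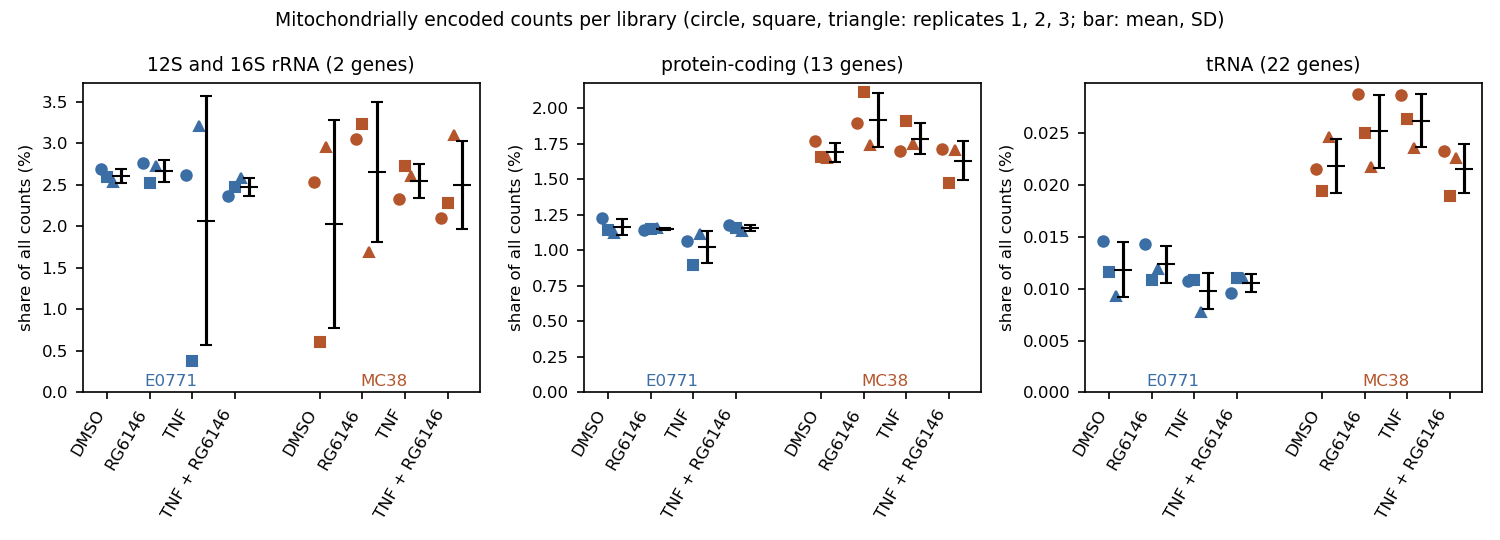
Share of all counts (percent, vertical) taken by the rRNA, protein-coding and tRNA members in each library of the 8 groups, with circle, square and triangle for replicates 1, 2 and 3 and bars for mean and SD. The rRNA panel shows 1 library near 0.376% in E0771 with TNF and 1 near 0.609% in MC38 with DMSO, and the coding panel shows MC38 above E0771.

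mt-Rnr2, the 16S rRNA of the large ribosomal subunit, had the highest level per length of the members in the DMSO libraries of both lines, at 10199 CPM per kb in E0771 and 9011 CPM per kb in MC38. In E0771 it stood at 16485, 16162 and 15758 CPM in DMSO replicates 1 to 3, at 18376, 16623 and 17772 CPM with RG6146, at 17059, 2241 and 20786 CPM with TNF, and at 16042, 16690 and 17572 CPM with the combination. In MC38 it stood at 18243, 4444 and 20079 CPM with DMSO, at 22790, 24506 and 13147 CPM with RG6146, at 19325, 19936 and 19258 CPM with TNF, and at 15789, 17149 and 24617 CPM with the combination. In E0771 the RG6146 libraries lay above the DMSO libraries, a difference that did not pass the test, and the other treatment comparisons of each line overlapped. Of all genes with a mean CPM over 1, 17.6% were higher without overlap between RG6146 and DMSO in E0771.

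mt-Rnr1, the 12S rRNA of the small subunit, was low in the same libraries. In E0771 it stood at 9470, 8345 and 8245 CPM with DMSO, at 8638, 8374 and 8793 CPM with RG6146, at 8883, 1693 and 12273 CPM with TNF, and at 8322, 8545 and 9196 CPM with the combination. In MC38 it stood at 6379, 1379 and 8854 CPM with DMSO, at 8709, 9157 and 4521 CPM with RG6146, at 3365, 7009 and 6532 CPM with TNF, and at 6357, 6142 and 7646 CPM with the combination. MC38 TNF replicate 1 was thus low in mt-Rnr1 but not in mt-Rnr2, and its ratio of mt-Rnr2 to mt-Rnr1 counts was 5.74, the highest of the 24 libraries. The median ratio was 2.85 in MC38 and 1.92 in E0771.

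Of the 15 rRNA and protein-coding members, the same 5 were low in both libraries. Against the other 2 libraries of its group, E0771 TNF replicate 2 was lower on the log2 scale by these differences: mt-Rnr2 -3.08, mt-Rnr1 -2.64, mt-Atp8 -1.82, mt-Nd2 -1.68 and mt-Nd5 -1.44. MC38 DMSO replicate 2 differed by -2.11 for mt-Rnr2, -2.47 for mt-Rnr1, -2.09 for mt-Atp8, -1.37 for mt-Nd2 and -1.93 for mt-Nd5. The other 10 rRNA and protein-coding members did not fall by 0.5 or more in both. The complex I gene mt-Nd1 differed by 0.25 and 0.25, the complex III gene mt-Cytb by 0.24 and 0.35, and the complex IV gene mt-Co3 by 0.30 and 0.18. Other libraries shared part of the pattern. MC38 TNF replicate 1 differed by -1.01 for mt-Rnr1, -0.70 for mt-Atp8, -0.79 for mt-Nd2, -1.04 for mt-Nd5 and -1.51 for mt-Nd4l, but by -0.02 for mt-Rnr2. MC38 RG6146 replicate 3 differed by -0.85 for mt-Rnr2, -0.98 for mt-Rnr1, -0.80 for mt-Atp8, -0.25 for mt-Nd2 and -0.46 for mt-Nd5.

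The 5 members that were low hold 13 to 16 A in their most A-rich 20 bases, and the other 10 hold 8 to 13. Those with 13 A among the other 10 are mt-Co2, mt-Nd4 and mt-Cytb, so the feature does not separate the sets. Across the 15 genes the number of A and the deviation had Pearson r = -0.65 and Spearman rho = -0.54 in E0771 TNF replicate 2, and r = -0.66 and rho = -0.51 in MC38 DMSO replicate 2. These describe single libraries whose genes are not independent, and several members have near-equal counts in the row of a copy.

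Rows of copies that match only part of a gene were also compared. The row of Gm28439, which holds reads that match the first 876 bases of mt-Nd4, differed by -1.40 in E0771 TNF replicate 2 and by -1.70 in MC38 DMSO replicate 2, while mt-Nd4 itself differed by -0.18 and -0.16. The row of Gm13339, which matches the last 510 bases of mt-Nd2 at 96.7% identity, differed by -0.17 and 0.44, while mt-Nd2 differed by -1.68 and -1.37. The tRNA gene mt-Tm, which ends at the base before mt-Nd2 begins, differed by -1.59 and -1.42. Rows that match different parts of 1 gene thus differed by unlike amounts in these libraries. Whether the reads in the rows of the copies came from the mitochondrial genes was not tested.

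The nuclear-retained RNA Malat1, which is counted among the signs of RNA composition, was lowest in the same pair: 511 CPM in E0771 TNF replicate 2 and 522 CPM in MC38 DMSO replicate 2. It was at 1111 CPM in MC38 TNF replicate 1, and no other library lay below that. The part of priming, depth or RNA composition in the low values was not tested. E0771 TNF replicate 3 deviated in the other direction, with 1.21 for mt-Rnr1, 1.11 for mt-Rnr2, 1.07 for mt-Atp8, 1.03 for mt-Nd2 and 0.99 for mt-Nd5 against the other 2 TNF libraries, of which 1 is the low library.

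**Figure D3:**
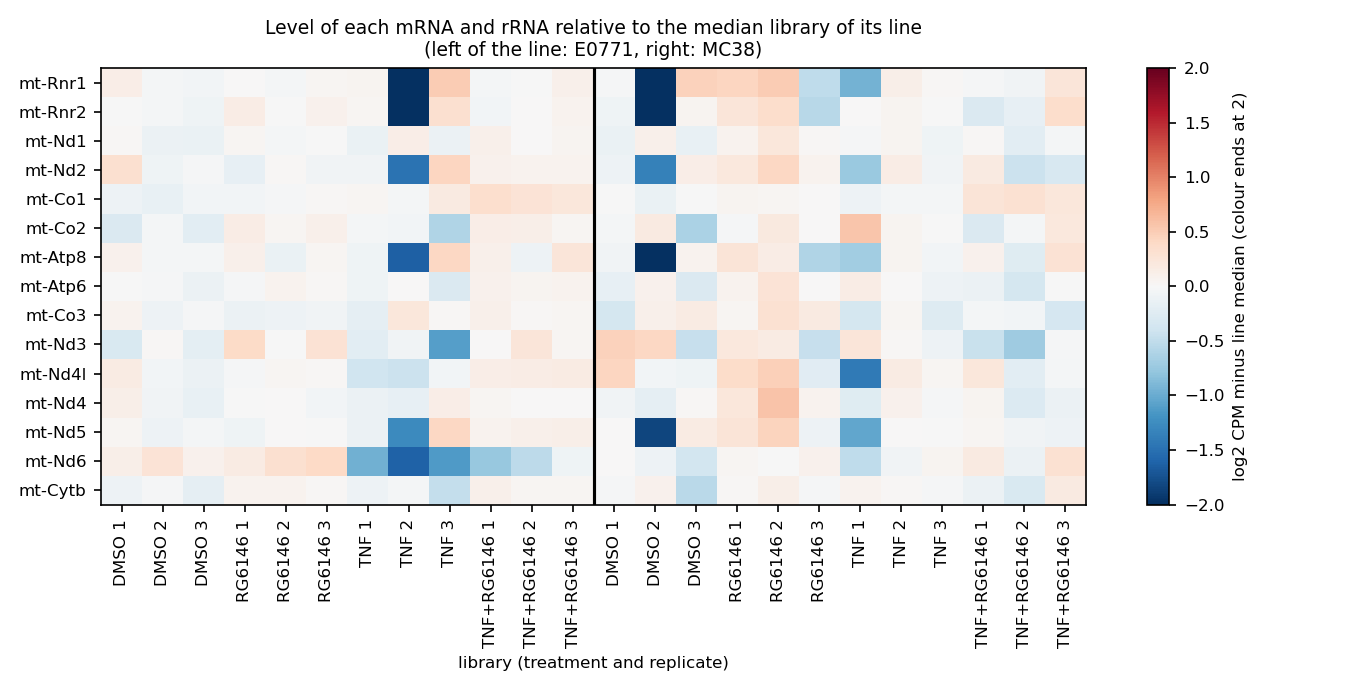
Level of each rRNA and protein-coding member in each library (columns) as log2 CPM minus the median of its line, with members (rows) in genome order and blue for below the median. E0771 TNF replicate 2 and MC38 DMSO replicate 2 are dark blue for mt-Rnr1, mt-Rnr2, mt-Nd2, mt-Atp8 and mt-Nd5 and near white for mt-Nd1, mt-Co1 and mt-Cytb. In E0771 mt-Nd6 is blue in the 3 TNF libraries.

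mt-Nd2, a complex I subunit and the protein-coding member with the highest mean CPM over the 24 libraries (in MC38 DMSO libraries mt-Cytb had the higher mean), was low in the same libraries as the rRNAs. In E0771 it stood at 3057, 2301 and 2410 CPM with DMSO, at 2178, 2476 and 2321 CPM with RG6146, at 2334, 875 and 3273 CPM with TNF, and at 2599, 2566 and 2563 CPM with the combination. In MC38 it stood at 3681, 1551 and 4325 CPM with DMSO, at 4592, 5253 and 4131 CPM with RG6146, at 2361, 4387 and 3777 CPM with TNF, and at 4478, 2932 and 3163 CPM with the combination. The lowest value of each line fell in its low library. None of its treatment comparisons passed the test.

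mt-Nd6 fell with TNF in E0771. This complex I subunit is the only protein that the light strand encodes, and its gene (chrM:13552-14070) ends inside the end of mt-Nd5 on the opposite strand. Their 3′ ends are shown with the 14 shared bases in capitals, since reads there cannot be assigned to one of them without strand, and the strand setting of the counting is not given in the sources used here.
mt-Nd5, chrM:13506-13565, plus strand: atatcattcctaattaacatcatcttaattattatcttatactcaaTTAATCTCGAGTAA
mt-Nd6, chrM:13552-13611, minus strand: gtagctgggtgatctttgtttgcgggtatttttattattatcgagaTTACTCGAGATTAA
Reads of a precursor from the other strand over the rest of mt-Nd6 would be counted for it too if strand was not used.

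In E0771 mt-Nd6 stood at 126.6, 140.9 and 123.9 CPM with DMSO and at 59.9, 37.7 and 52.8 CPM with TNF. All 3 TNF libraries lay below all 3 DMSO libraries, which held for 5.95% of all genes with a mean CPM over 1. The log2 fold change was -1.41 ± 0.18 (SE, n = 3 per group), that is 0.376 of the DMSO level, with an edgeR quasi-likelihood adjusted p of 3.12e-04 over all genes. It was the 1 member called (adjusted p under 0.05) of 28 tested, and it was lower. Of all genes tested in this comparison 2.32% were called, with 1.88% called higher and 0.439% called lower. DESeq2 also called 1 member.

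The fall was also called without the low library. Without E0771 TNF replicate 2 the log2 fold change of mt-Nd6 was -1.22 with an adjusted p of 9.69e-05, and it was called under all 14 alternatives that were tried, with values from -1.59 to -1.22. Among these 14, omission of E0771 TNF replicate 2 and omission of the low libraries are the same fit in this line. Without TNF replicate 1 a second member was called lower, the tRNA gene mt-Tv at -1.36, and without TNF replicate 3 it was mt-Nd4l at -0.43. mt-Nd5, the gene on the opposite strand, stood at 429, 389 and 405 CPM with DMSO and at 385, 173 and 555 CPM with TNF, and its groups overlapped. The light strand tRNAs that could be tested gave 0.06 ± 0.23 for mt-Tq and 0.29 ± 0.29 for mt-Tp on the log2 scale, and neither passed the test. The others were too low to be tested in E0771. Among them mt-Te, next to mt-Nd6, stood at 1.07, 0.67 and 0.68 CPM with DMSO and 0.41, 0.46 and 0.37 CPM with TNF, on at most 7 counts. mt-Ta stood at 2.30, 0.67 and 0.51 CPM with DMSO and 1.09, 1.95 and 0.56 CPM with TNF. In these bulk samples fewer cells of a type and less RNA per cell cannot be told apart. The nuclear-retained RNA Neat1 fell in the same comparison (-0.71 ± 0.10), at 384, 319 and 350 CPM with DMSO and 207, 194 and 255 CPM with TNF, while Malat1 did not pass. Its relation to mt-Nd6 was not tested. The median log2 fold change was -0.18 over the 28 members and -0.02 over all genes tested.

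With the combination mt-Nd6 lay between the TNF and the DMSO level in E0771, at 69.0, 80.4 and 109.0 CPM. All 3 values lay above the TNF libraries and below the RG6146 libraries, which stood at 130.5, 145.2 and 153.0 CPM. Of all genes with a mean CPM over 1, 13.2% lay above TNF without overlap and 8.2% below RG6146. Against TNF the log2 fold change of mt-Nd6 was 0.81 ± 0.18 with an edgeR adjusted p of 0.00696. Against RG6146 it was -0.74 ± 0.18 with an adjusted p of 0.0971, which missed the threshold. DESeq2 called this difference, with an adjusted p of 0.0105, and so did edgeR without the low library, with an adjusted p of 0.00554.

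RG6146 alone gave 0.14 ± 0.17 for mt-Nd6 in E0771, with an edgeR adjusted p of 0.676. The interaction, which asks whether RG6146 acted differently with TNF than without it, was 0.67 ± 0.25 with an adjusted p of 0.9999. Both comparisons with TNF as one side share the TNF libraries.

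In MC38 the level of mt-Nd6 with TNF overlapped that with DMSO. It stood at 107.6, 99.8 and 82.8 CPM with DMSO, at 110.4, 106.9 and 114.3 CPM with RG6146, at 75.3, 101.7 and 111.4 CPM with TNF, and at 120.9, 98.9 and 132.6 CPM with the combination. The log2 fold change with TNF was 0.00 ± 0.16, with an edgeR adjusted p of 0.999. The difference between the responses of the lines, E0771 minus MC38, was -1.38 ± 0.25 with an adjusted p of 0.0176 in the fit of all 24 libraries. It was the 1 member called of 30 tested, where 0.206% of all genes were called, 0.0854% higher and 0.121% lower. This call was lost without E0771 TNF replicate 2, at -1.20 with an adjusted p of 0.0537, and without E0771 DMSO replicate 2, at -1.31 with an adjusted p of 0.0749. It was also lost when only the 12 libraries with DMSO or TNF were fitted, at -1.37 with an adjusted p of 0.290.

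**Figure D4:**
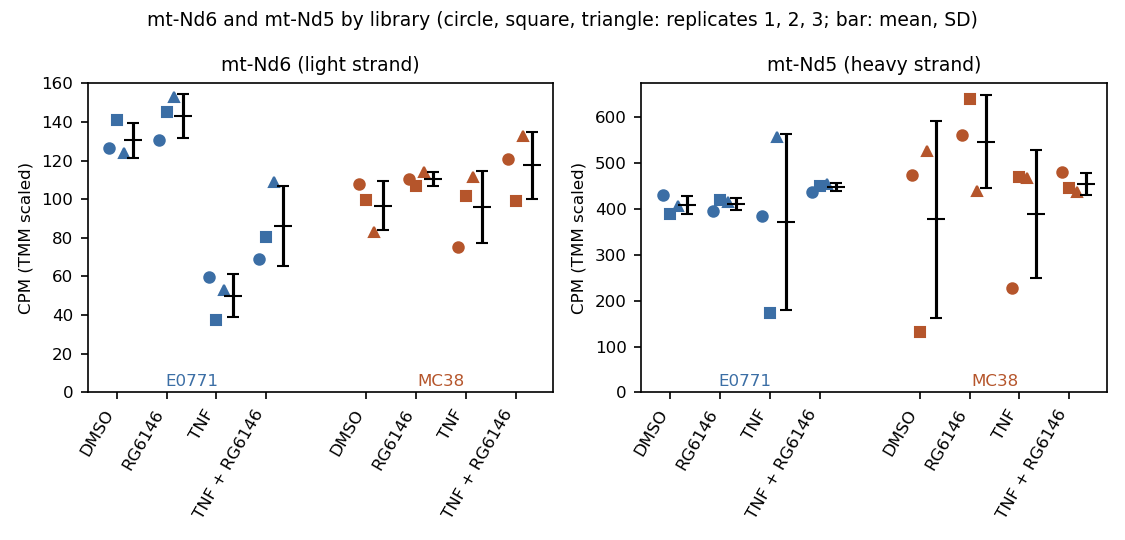
CPM (vertical) of mt-Nd6 and of the opposite-strand gene mt-Nd5 in each library of the 8 groups, with circle, square and triangle for replicates 1, 2 and 3 and bars for mean and SD. The E0771 TNF libraries of mt-Nd6 sit between 37.7 and 59.9 CPM, below the E0771 DMSO libraries, and MC38 shows no such gap; for mt-Nd5 the DMSO and TNF groups overlap, with 1 low library in each line.

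mt-Nd4l, a small complex I subunit whose counts were near those of the identical copy Gm10222, had the lowest mean CPM of the protein-coding members. In E0771 it stood at 51.2, 43.9 and 42.0 CPM with DMSO, at 45.2, 47.1 and 46.4 CPM with RG6146, at 34.9, 33.9 and 44.3 CPM with TNF, and at 50.3, 51.0 and 51.4 CPM with the combination. The combination libraries lay above all 3 TNF libraries, as they did for 13.2% of all genes with a mean CPM over 1. The log2 fold change, combination against TNF, was 0.47 ± 0.12 with an edgeR adjusted p of 0.0122. In MC38 it stood at 56.2, 40.4 and 39.5 CPM with DMSO, at 54.0, 58.5 and 35.7 CPM with RG6146, at 15.8, 47.0 and 42.9 CPM with TNF, and at 49.0, 36.2 and 40.9 CPM with the combination, and no comparison passed.

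mt-Nd6 and mt-Nd4l were the 2 members called between the combination and TNF in E0771, both higher, of 28 tested. Of all genes tested 16.6% were called, and 7.12% were called higher, so 2 of 28 is near the share of all genes. Both calls were lost when only the 6 libraries of these groups were fitted, with adjusted p of 0.0700 for mt-Nd6 and 0.0819 for mt-Nd4l. Without E0771 TNF replicate 2 the count was 6, all higher, with mt-Co2, mt-Atp6, mt-Nd3 and mt-Cytb added. It was 5 without TNF replicate 1 and 4 without TNF replicate 3. At an unadjusted p under 0.05 there were 7 members, all higher, among them mt-Co1 at 0.24 ± 0.08 with an edgeR adjusted p of 0.0508. No share of all genes is given for these omission fits or for any unadjusted count here and below. None of these counts is therefore read as an excess of members.

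The other treatment comparisons called no member with edgeR. In E0771 RG6146 against DMSO called 0 of 28 members, where 10.8% of all genes were called (3.96% higher and 6.86% lower), with 1 member under an unadjusted p of 0.05 and 0 called by DESeq2. The combination against RG6146 called 0 of 28 (0.734% of all genes, 0.678% higher and 0.0558% lower), with 2 under an unadjusted p of 0.05 and 1 called by DESeq2. The interaction called 0 of 28 (0.0478% of all genes, 0.0319% higher and 0.0159% lower), with 2 under an unadjusted p of 0.05 and 0 called by DESeq2. In the 6 libraries of the groups compared alone, RG6146 against DMSO gave 3 calls, mt-Co2, mt-Nd3 and mt-Cytb, all higher. The share of all genes called in that fit is not given here.

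In MC38 TNF against DMSO called 0 of 29 members (1.09% of all genes, 1.02% higher and 0.0678% lower), with 2 under an unadjusted p of 0.05 and 1 called by DESeq2. That member was mt-Tp, the proline tRNA gene of the light strand, which edgeR gave as 1.17 ± 0.32 with an adjusted p of 0.126. It stood at 19.8, 12.3 and 20.8 CPM with DMSO and at 61.9, 26.8 and 28.7 CPM with TNF, and it was chosen after its values were seen. The highest value came from TNF replicate 1, the library with low mt-Rnr1, which was also high in the light strand tRNA gene mt-Tq at 31.0 CPM.

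RG6146 against DMSO called 0 of 29 in MC38 (8.27% of all genes, 3.37% higher and 4.91% lower), with 2 under an unadjusted p of 0.05 and 0 called by DESeq2. The combination against TNF called 0 of 29 (11.3% of all genes, 3.70% higher and 7.60% lower), with 5 under an unadjusted p of 0.05 and 1 called by DESeq2, which was mt-Co1 at 0.33. The combination against RG6146 called 0 of 29 (0.294% of all genes, 0.279% higher and 0.0151% lower), with 5 under an unadjusted p of 0.05 and 0 called by DESeq2. The interaction called 0 of 29, where edgeR called 0% of all genes, with 4 members under an unadjusted p of 0.05 and 0 called by DESeq2. The difference between the lines in the RG6146 response called 0 of 30 (0.384% of all genes, 0.128% higher and 0.256% lower), with 1 under an unadjusted p of 0.05 and 0 called by DESeq2.

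The lines themselves differed widely. In the DMSO libraries 15 of 30 members were called, 4 higher and 11 lower in E0771 than in MC38. Of all genes tested 58.7% were called, 28.9% higher and 29.9% lower, so the share of members called was not above that of all genes. The median log2 difference was -0.31 over the members and 0.00 over all genes. Single changes are given below by role, as log2 differences of E0771 minus MC38 with SE, all from edgeR over the 24 libraries.

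Among complex I genes mt-Nd3 was lower in E0771 (-1.65 ± 0.25), at 112, 141 and 120 CPM against 468, 453 and 248 CPM in MC38. mt-Nd1 was lower too (-1.07 ± 0.10), at 1104, 1008 and 997 CPM against 2058, 2437 and 2032 CPM. For both genes the DMSO libraries of the lines did not overlap. Of all genes with a mean CPM over 1, 31.0% were lower in E0771 without overlap and 32.2% higher. mt-Nd6 was higher in E0771 (0.43 ± 0.17, adjusted p 0.0360). This call was lost in 5 of 14 alternatives, with adjusted p up to 0.145. The other complex I members, mt-Nd2, mt-Nd4l, mt-Nd4 and mt-Nd5, did not pass.

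mt-Cytb, the only complex III subunit made in the mitochondrion, gave the smallest adjusted p of the members (2.05e-10) with a difference of -1.80 ± 0.14. It stood at 1188, 1246 and 1126 CPM in E0771 against 4471, 4843 and 3121 CPM in MC38. Over all treatments it stayed between 910 and 1365 CPM in E0771 and between 3121 and 5132 CPM in MC38, so the lines did not overlap in any library. The share of all genes that separate the lines over all treatments was not computed. In the DMSO libraries alone 31.0% of all genes with a mean CPM over 1 were lower in E0771 without overlap.

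Of the 3 catalytic core genes of complex IV, 2 were higher in E0771. mt-Co3 was higher in E0771 (0.74 ± 0.13), at 1355, 1203 and 1272 CPM against 603, 831 and 862 CPM. mt-Co1 was higher too (0.46 ± 0.08), at 680, 657 and 703 CPM against 511, 467 and 510 CPM. mt-Co2 did not pass (-0.16 ± 0.18). In the ATP synthase mt-Atp6 was lower in E0771 (-0.75 ± 0.11), at 1034, 1028 and 957 CPM against 1636, 1933 and 1501 CPM, and mt-Atp8, which overlaps it by 43 bases, did not pass (-0.42 ± 0.40).

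Adding the reads of the nuclear copies to their mitochondrial gene left the count at 15, with 4 higher and 11 lower. mt-Atp6 and mt-Co3 are neighbours that overlap by 1 base, are cut from 1 precursor and yet differed between the lines in opposite directions. The rRNAs did not pass (mt-Rnr1 0.65, mt-Rnr2 0.18), and the low MC38 DMSO library is among these 6.

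Of the tRNA genes 8 were called. mt-Td, for aspartate tRNA, was higher in E0771 (1.28 ± 0.38), at 5.83, 3.49 and 3.23 CPM against 1.08, 2.57 and 1.21 CPM. The 7 that were lower included mt-Tm for methionine (-1.91 ± 0.36), at 14.3, 12.2 and 11.7 CPM against 58.0, 22.8 and 63.8 CPM, and mt-Tp for proline (-1.68 ± 0.34), at 5.68, 5.91 and 4.59 CPM against 19.8, 12.3 and 20.8 CPM. mt-Ti for isoleucine followed (-1.58 ± 0.22), at 22.6, 13.43 and 9.698 CPM against 42.0, 49.4 and 45.1 CPM. In each of these 3 genes the lines did not overlap, as for 31.0% of all genes with a mean CPM over 1 in that direction.

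The other lower tRNA genes were called at smaller differences. mt-Tl1 for leucine stood at 3.22, 3.76 and 3.40 CPM in E0771 against 7.73, 7.32 and 10.6 CPM (-1.29). mt-Tr for arginine stood at 10.6, 10.5 and 8.17 CPM against 21.9, 23.6 and 24.7 CPM (-1.26). mt-Tt for threonine stood at 7.67, 4.70 and 3.40 CPM against 9.34, 12.9 and 10.7 CPM (-1.07). mt-Tq for glutamine stood at 7.36, 6.58 and 4.08 CPM against 10.96, 11.96 and 9.05 CPM (-0.82), a call lost in 4 of 14 alternatives.

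A mature tRNA has no A tail, and reads that overlap a tRNA gene can come from an end of the neighbouring mRNA or from an uncut precursor. The values describe the annotated interval only. mt-Ti begins inside the last 2 bases of mt-Nd1, and mt-Tt begins at the base after mt-Cytb ends, and all 4 were lower in E0771. Of the members not tested here, mt-Tf had 67 counts over the 24 libraries, mt-Tc 64, mt-Ts2 45, mt-Ty 80 and mt-Tn 24, and 2 tRNA genes had fewer than 20.

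**Figure D5:**
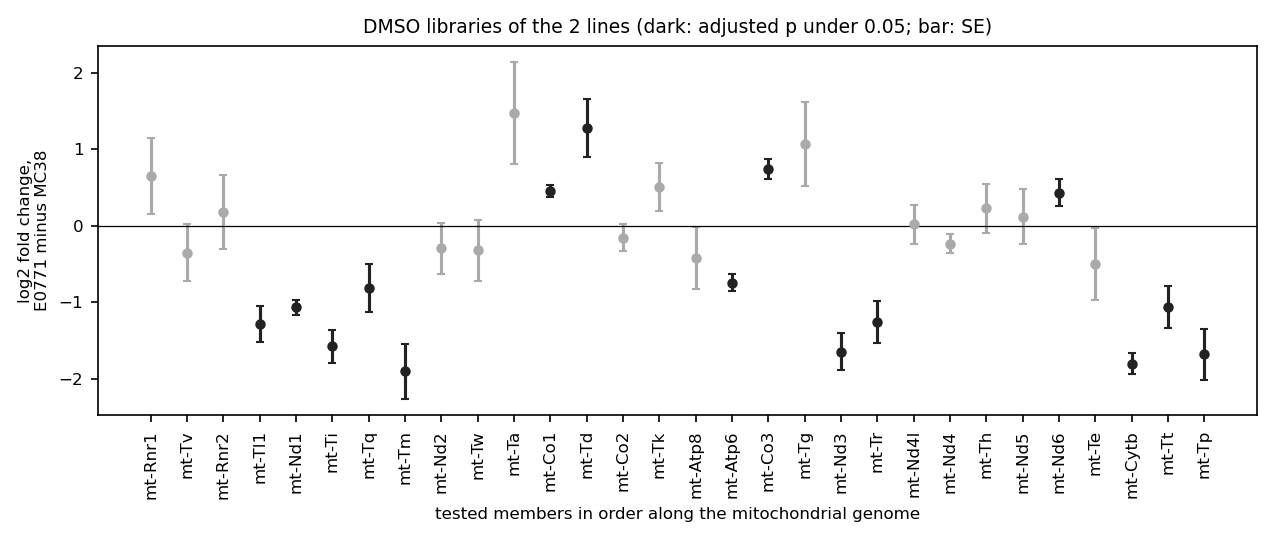
Log2 fold change of E0771 minus MC38 in the DMSO libraries (vertical, bars are SE) for the 30 tested members in genome order, dark where the adjusted p was under 0.05. Values range from mt-Tm at -1.91 to mt-Ta at 1.47, and mt-Co1, mt-Td, mt-Co3 and mt-Nd6 are the 4 dark points above 0.

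The nuclear genes that serve mitochondrial RNA were described from lists. With TNF in E0771 none of 39 tested genes for mitochondrial transcription and RNA processing was called, where 2.32% of all genes were called. Polrmt, the mitochondrial RNA polymerase, gave 0.21 ± 0.16 on the log2 scale, the transcription and packaging factor Tfam gave -0.08 ± 0.13, and the mRNA-stabilising protein Lrpprc gave 0.24 ± 0.08 with an adjusted p of 0.192. None of 77 mitochondrial ribosomal proteins and none of 37 nuclear complex I subunits was called. In MC38 with TNF none of 40 processing genes was called, where 1.09% of all genes were called. There 1 of 77 ribosomal proteins was called higher, Mrpl27 at 1.23 ± 0.25, where 1.02% of all genes were called higher. At these shares lists of this size would hold few calls, so the counts are not read as a result about the lists.

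RG6146 lowered some nuclear genes of mitochondrial RNA handling in both lines, while the mitochondrially encoded members gave 0 calls. In E0771 RG6146 against DMSO 7 of 39 processing genes were called, all lower, where 6.86% of all genes were called lower. They included Fastkd2 (-0.64 ± 0.14) and Fastkd5 (-1.05 ± 0.22), RNA-binding proteins of mitochondrial RNA granules. The median of the 39 was -0.16, against 0.00 over all genes. In MC38 4 of 40 were called, all lower, including Fastkd2 (-0.86 ± 0.16) and Mgme1 (-0.97 ± 0.20), a nuclease of mitochondrial DNA maintenance, where 4.91% of all genes were called lower. In the same comparisons the fibroblast markers Pdgfra and Pdgfrb were lower, 2 of 3 tested in E0771 and 2 of 4 in MC38, and their part was not tested.

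Between the combination and TNF 9 of 39 processing genes were called lower in E0771 and none higher, where 9.46% of all genes were called lower. They included Mrm3 (-1.29 ± 0.17), a 16S rRNA methyltransferase, and Fastkd2 (-0.82 ± 0.14). In MC38 4 of 40 were called lower and none higher, including Mgme1 (-1.28 ± 0.21) and Fastkd2 (-0.98 ± 0.16), where 7.60% of all genes were called lower. Fibroblast markers were lower here too, 2 of 3 in E0771 and 4 of 4 in MC38, and 2 of 4 leukocyte markers were higher in MC38, where combination replicate 2 stood at 105.5 CPM for their sum. The part of these was not tested. Polrmt, Tfam and Lrpprc passed in none of these 4 comparisons.

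Mitochondrial ribosomal proteins in E0771 were called lower at shares near those of all genes, and at most 1 of 77 was called higher. In E0771 RG6146 against DMSO 1 of 77 was called higher, Mrpl49 (0.43 ± 0.11), and 6 lower, among them Mrpl19 (-0.58 ± 0.11) and Mrps18b (-0.58 ± 0.13), where 3.96% of all genes were called higher and 6.86% lower. Between the combination and TNF in E0771 none was higher and 8 were lower, again with Mrpl19 (-0.85 ± 0.11) and Mrps18b (-0.89 ± 0.13), where 7.12% of all genes were called higher and 9.46% lower. In MC38 RG6146 called 1 of 77 higher, Mrpl49 (0.65 ± 0.15), and none lower (3.37% and 4.91% of all genes). Between the combination and TNF in MC38 2 were higher and 4 lower (3.70% and 7.60% of all genes).

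Of the regulators of mitochondrial biogenesis, the deacetylase Sirt1 rose in E0771 with RG6146 (0.81 ± 0.13) and between the combination and TNF (1.11 ± 0.13), and Pprc1, a coactivator of the PGC-1 family, fell (-0.48 ± 0.15 and -0.51 ± 0.15). These were among 3 of 13 called in each comparison, with Creb1 as the third, where 10.8% and 16.6% of all genes were called. In MC38 RG6146 against DMSO called 1 of 14, Nfe2l2 (0.80 ± 0.18), a stress-response factor, where 8.27% of all genes were called. The PGC-1 family coactivator Ppargc1b fell between the combination and TNF in MC38 (-1.09 ± 0.27), the 1 of 14 called, where 11.3% of all genes were called.

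Between the lines nuclear respiratory subunits differed too, again as E0771 minus MC38 in DMSO, where 29.9% of all genes were called lower and 28.9% higher. Of 16 tested complex V subunits 11 were called lower and none higher, with a median of -0.69. In complex IV 7 of 13 were lower and none higher, in complex III 6 of 9 were lower and none higher, and in complex I 17 of 37 were lower and 8 higher. Atp5k (-1.67 ± 0.15), Cox6c (-1.52 ± 0.14) and Uqcrh (-0.96 ± 0.12) are examples. The mitochondrially encoded mt-Co1 and mt-Co3 were higher in E0771, while none of the nuclear complex IV subunits was.

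Regulators differed between the lines as well. Ppargc1b was called lower in E0771, where its raw counts in the DMSO libraries were 1, 0 and 1 against 58, 65 and 62 in MC38, too few for a fold change. Esrra, a nuclear receptor that works with PGC-1 coactivators, was lower (-2.13 ± 0.26), while the transcription factor Myc was higher (2.92 ± 0.45). Polrmt (-0.56 ± 0.20) and Lrpprc (-0.44 ± 0.11) were lower, and Tfam did not pass (-0.33 ± 0.17). Of the genes for mitochondrial transcription and RNA processing 18 of 40 were lower and 6 higher, against 29.9% and 28.9% of all genes. Cytosolic ribosomal proteins, a list unrelated to the mitochondrion, had 39 of 76 lower and 10 higher in the same comparison, with a median of -0.30.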

How the data were processed

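The deposited unit is raw counts per gene, 1 table for the 24 libraries, made by the authors. Per the labels' protocols, 500 ng of RNA went into each QuantSeq 3′ library, and sequencing on a NextSeq 500 gave single 75 bp reads. In the submitters' processing notes bcl2fastq 2.17.1.14, cutadapt 1.14, HISAT2 2.1.0 and featureCounts of Subread 1.5.2 are named, with mm10 and limma. No source used here gives the annotation release, the strand setting or the treatment of reads that match several places. Whether replicates are separate cultures is not stated, and the p-values then reflect only library-to-library spread, which may be technical.

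Symbols and positions came from GENCODE vM21, in which 42462 of 43629 identifiers were found. edgeR 4.0.16 (R 4.3.3; filterByExpr, TMM, glmQLFit, glmQLFTest) was fitted to the 12 libraries of each line, or to all 24 between lines, with Benjamini-Hochberg adjustment over all genes tested and calls at an adjusted p under 0.05. The standard error is the absolute log2 fold change over the root of F. The filter kept 28 members in E0771, 29 in MC38 and 30 in the joint fit. Class shares were tested by exact permutation over all arrangements with numpy 2.4.6. Copies were found with blastn 2.17.0. Intervals are exact binomial ones at 95% from scipy 1.17.1 and cover counting error only. Alternatives were DESeq2 1.42.0, library totals, scaling without the members, no filter, the replicate block, only the groups compared, omission of each library or of both low libraries and, added after seeing the data, summing members with their copies. The fits were tested on simulated data.

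The named members were both rRNAs, the protein-coding members of highest and lowest mean CPM and every member called. The tRNA genes were named from 20 counts, and from each nuclear list up to 2 called genes of smallest p in each direction, plus Polrmt, Tfam, Lrpprc and Ppargc1b. Members and lists were chosen with earlier results of these data known.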

Additional observations from a re-analysis of the deposited data

Results flagged for a closer look

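The TNF response of mt-Nd6 differed between the lines by -1.38 ± 0.25 on the log2 scale (E0771 minus MC38) in the test of the difference itself, with an edgeR adjusted p of 0.0176. In E0771 all 3 TNF libraries lay below all 3 DMSO libraries, as for 5.95% of all genes with a mean CPM over 1. In MC38 the TNF and DMSO libraries overlapped. Over the alternatives tried, the adjusted p of this difference ran from 1.67e-07 to 0.290, and it was called in 16 of 20.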

How the results depend on the processing

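None of the 19 called differences of single members changed direction under any alternative. Differences that were not called were not followed this way. With DESeq2, 1 member was called in each of E0771 combination against RG6146, MC38 TNF against DMSO and MC38 combination against TNF, where edgeR called 0. With no filter on low counts, the calls were 1, 6 and 1 in E0771 for RG6146 against DMSO, combination against TNF and combination against RG6146, and 2, 3, 3, 1 and 1 in MC38 for TNF, RG6146, combination against TNF, combination against RG6146 and the interaction. They were 2 and 1 for the line differences in the TNF and the RG6146 response. With only the groups compared, the calls were 3, 0 and 2 for the same E0771 comparisons and 0 for the TNF response difference. Scaling without the members called 1 in MC38 combination against TNF. Without both low libraries the calls were 6 and 2 in E0771 for combination against TNF and against RG6146, 1 in MC38 combination against TNF and 0 for the TNF response difference. Shares of all genes are not given for these alternative fits or for the omissions below. The counts therefore show only how the calls of members moved. The causes were not tested.

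Without both low libraries the effects on class totals that turned direction were, in E0771, -0.191 percentage points (RG6146) and 0.0563 (TNF) for the rRNA share and 0.135 (RG6146) and -0.0638 (TNF) for the log2 ratio of protein-coding to rRNA counts. In MC38 they were -0.0724 (RG6146) and -0.178 (TNF) for the rRNA share and 0.0902 (RG6146) for the ratio.

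Leaving out 1 library at a time, the calls ranged from 1 to 2 for E0771 TNF against DMSO, 2 to 6 for E0771 combination against TNF, 0 to 1 for combination against RG6146 in each line (1 without E0771 combination replicate 3 and without MC38 RG6146 replicate 3) and 0 to 2 for the TNF response difference. The rRNA share effects ranged from -0.191 to 0.518 (RG6146) and -0.653 to 0.0563 (TNF) in E0771 and from -0.0724 to 0.526 (RG6146) and -0.178 to 0.410 (TNF) in MC38. The ratio effects ranged from -0.562 to 0.135 (RG6146) and -0.0638 to 0.633 (TNF) in E0771 and from -0.481 to 0.0902 (RG6146) in MC38, and the MC38 protein-coding share effect of RG6146 from -0.0137 to 0.0794.

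Libraries with the same replicate number did not deviate together: 0 of 18 such pairs in E0771 and 5 of 18 in MC38 had a correlation above 0.1, so the numbers were not taken as pairs. With the replicate block, 1 member (mt-Tp) was called in each of MC38 TNF against DMSO and MC38 combination against TNF, and the mt-Nd6 difference between the DMSO libraries had an adjusted p of 0.129.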
